A study of Mus musculus with 6 samples.

Results

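The cone phototransduction genes are the 10 genes of the deposited count table whose symbols are Opn1sw, Opn1mw, Arr3, Gnat2, Gnb3, Gngt2, Pde6c, Pde6h, Cnga3 and Cngb3, out of 23420 genes in all. They were taken by gene symbol, with no threshold on their values. Whole mouse retina was sequenced in 6 libraries, 2 from each of 3 groups: untreated control retinas, retinas taken 4 days after 1 h of light at 10000 lux, and retinas from mice that received the same light and, in addition, minocycline, a tetracycline antibiotic, at 45 mg/kg once a day into the peritoneum on 4 days. The labels give the strain CD1 for all groups, whereas the study's methods describe adult albino BALB/cJ mice of both sexes, a higher light intensity and a longer injection course, so the strain, the light dose and the schedule are not settled. No transgene or deletion is named for any group, and no group received minocycline without light. The methods call the replicates biological, and do not say whether retinas were pooled. The minocycline columns share one header and are therefore called minocycline A and minocycline B, with no replicate number.

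Cones are the photoreceptors of daylight and colour vision and make up a small minority of the photoreceptors of the mouse retina, which rods dominate. In a cone, light activates a cone opsin, the opsin activates cone transducin, and transducin releases the phosphodiesterase from its inhibitory subunit. The enzyme then hydrolyses cyclic GMP and the cyclic nucleotide-gated channel of the outer segment closes. Cone arrestin ends the signal. Rods run the same cascade with a largely separate set of gene products, so that most cone genes have a rod counterpart, and bright light in albino rodents is known chiefly for the loss of rods.

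Total counts ran from 15205930 to 22856922 per library. Levels are given as CPM, the count relative to library size, with library sizes adjusted by the trimmed mean of M values (TMM) over all 6 libraries. The 12 microglia and macrophage markers summed to 36.5 and 45.2 CPM in the control libraries, to 327 and 1037 CPM in light-exposed 1 and 2, and to 78.0 and 35.8 CPM with minocycline. The minocycline libraries also stood apart in 3 lists of markers of other cell types. Their 10 corneal epithelium markers summed to 210 and 303 CPM, against 2.54 to 17.3 in the other 4 libraries, their 6 pigment cell markers to 306 and 1387 CPM, against 15.8 to 72.6, and their 6 smooth muscle markers to 75.5 and 357 CPM, against 8.11 to 21.2. The 8 pigment epithelium markers did not move with them, at 132 and 197 CPM against 160 to 379 in the other 4 libraries. The source of these transcripts was not tested. No gene of these lists was at 0 in every library. Control 1 held 77778 counts of Xist, which is transcribed from the inactive X chromosome of female cells, and the other libraries held 25 to 188. The label retina was borne out by Gnat1, the rod transducin alpha subunit, at 17711 ± 4262 CPM in control retinas (SD, n = 2).

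All 10 cone genes were detected in every library, with at least 132 counts (Cnga3 in control 2), and all passed the filter on low counts in each comparison. The cone genes therefore lay far above the limit of 3 counts that a count of 0 allows, 0.131 to 0.213 CPM, which covers counting error only. Levels between genes were compared per kilobase of annotated transcript, as CPM divided by length, over the control libraries. Gnb3 stood highest at 423 ± 60.5 CPM per kb (SD, n = 2), followed by Arr3 at 244 ± 51.1, Opn1sw at 232 ± 21.5, Gngt2 at 111 ± 15, Gnat2 at 75.7 ± 8.08 and Opn1mw at 65.7 ± 0.475 CPM per kb. Pde6h followed at 47.7 ± 7.08, then Pde6c at 17.9 ± 2.09, Cnga3 at 4.91 ± 0.633 and Cngb3 at 3.81 ± 0.283 CPM per kb. The control values of Arr3 and Opn1sw overlapped, so these genes cannot be ordered, while no other neighbours in this order overlapped at these lengths. The place of Gngt2 depends on its transcript, since the longest principal transcript gave 34.8 CPM per kb in place of 111, and that of Pde6h rests on an annotated transcript of 5.94 kb. At its longest principal transcript Cnga3 stood at 2.88 CPM per kb, below Cngb3, so the order of these genes depends on the transcript too. By the same measure Gnat1 stood at 7608 CPM per kb, and the lowest of the 9 rod counterparts examined, the channel subunit Cngb1, at 289, above 9 of the 10 cone genes. Gnb3 is also a known transducin subunit of ON bipolar cells, the neurons that photoreceptors drive, so its level may not be that of cones alone, which was not tested.

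The opsins lie on different chromosomes. In GRCm38 with the GENCODE annotation, Opn1sw, the short-wavelength opsin, lies on the minus strand at chr6:29376671-29388468, and Opn1mw, the medium-wavelength opsin, on the plus strand at chrX:74127464-74150760. Arr3, the cone arrestin, lies at chrX:100605497-100618493 on the plus strand. The gene model of Opn1sw overlaps Calu on the opposite strand. Of the 50-base stretches of the Opn1sw transcripts, 13.6% also occur in Calu on the opposite strand, and whether counting used the strand is not stated, so part of the Opn1sw count is uncertain. For Opn1mw and Arr3 no stretch was shared with another gene, and no cone gene shared a stretch with its rod counterpart. The promoters of Opn1sw and Arr3 were chosen to show how cone genes differ in TAATC, the core that Crx, a transcription factor of rods and cones, is known to bind. The RefSeq start of Opn1sw lies inside the longer GENCODE gene model. The 150 bases before each RefSeq start site (GRCm38.p6) are printed 5′ to 3′ on the gene's own strand, with TAATC or its reverse complement GATTA in capitals.
Opn1sw, chr6:29380514-29380663, minus strand: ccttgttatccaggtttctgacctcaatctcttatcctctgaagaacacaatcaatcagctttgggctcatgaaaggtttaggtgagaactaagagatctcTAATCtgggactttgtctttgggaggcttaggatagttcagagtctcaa
Arr3, chrX:100605347-100605496, plus strand: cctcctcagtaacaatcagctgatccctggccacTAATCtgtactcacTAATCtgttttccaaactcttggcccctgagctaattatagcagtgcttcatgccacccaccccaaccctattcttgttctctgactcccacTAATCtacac

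The Opn1sw window held 1 core, 49 bases before the start, and the Arr3 window held 3, at 116, 102 and 10 bases before it. The RefSeq table used held a promoter for 6 of the 10 cone genes and for 6 of the 9 rod counterparts. Over the 250 bases before the start, TAATC on either strand was present in 3 of 6 cone genes (Opn1sw, Arr3 and Gnat2) and in 5 of 6 rod counterparts, against 19.8% of 32851 promoters. The longer form TAATCC, which contains TAATC, was present in 1 of 6 cone genes (Gnat2) and 4 of 6 rod counterparts, against 6.25% of promoters. These matches describe the sequence and were not tested for binding.

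The first comparison asked how the cone cascade stood 4 days after light. No cone gene passed the test at an adjusted p of 0.05 (edgeR quasi-likelihood F test, two-sided, Benjamini-Hochberg over 14349 genes), higher or lower, while 7.52% of all tested genes were called higher and 3.80% lower. The log2 fold changes of the 10 genes ran from -0.04 to 0.55 with a median of 0.25, beside a median of 0.0025 over all tested genes, and 9 were positive. Their standard errors lay between 0.152 and 0.241, and all 10 of the 95% intervals lay between -1 and 1. At unadjusted p under 0.05 stood 1 cone gene, Cngb3, among 4144 of all tested genes. In 4 genes (Gnb3, Pde6c, Cnga3 and Cngb3) both light-exposed libraries lay above both control libraries, and in 0 below, against 30.6% and 30.3% of all tested genes. The 4 of 10 cone genes separated upwards are thus near the background share. DESeq2 also called 0 cone genes. In whole retina, fewer cells of a type and less RNA per cell cannot be told apart, and CPM values are shares of a library, so a gene can rise in CPM when other RNA is lost.

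**Figure D1:**
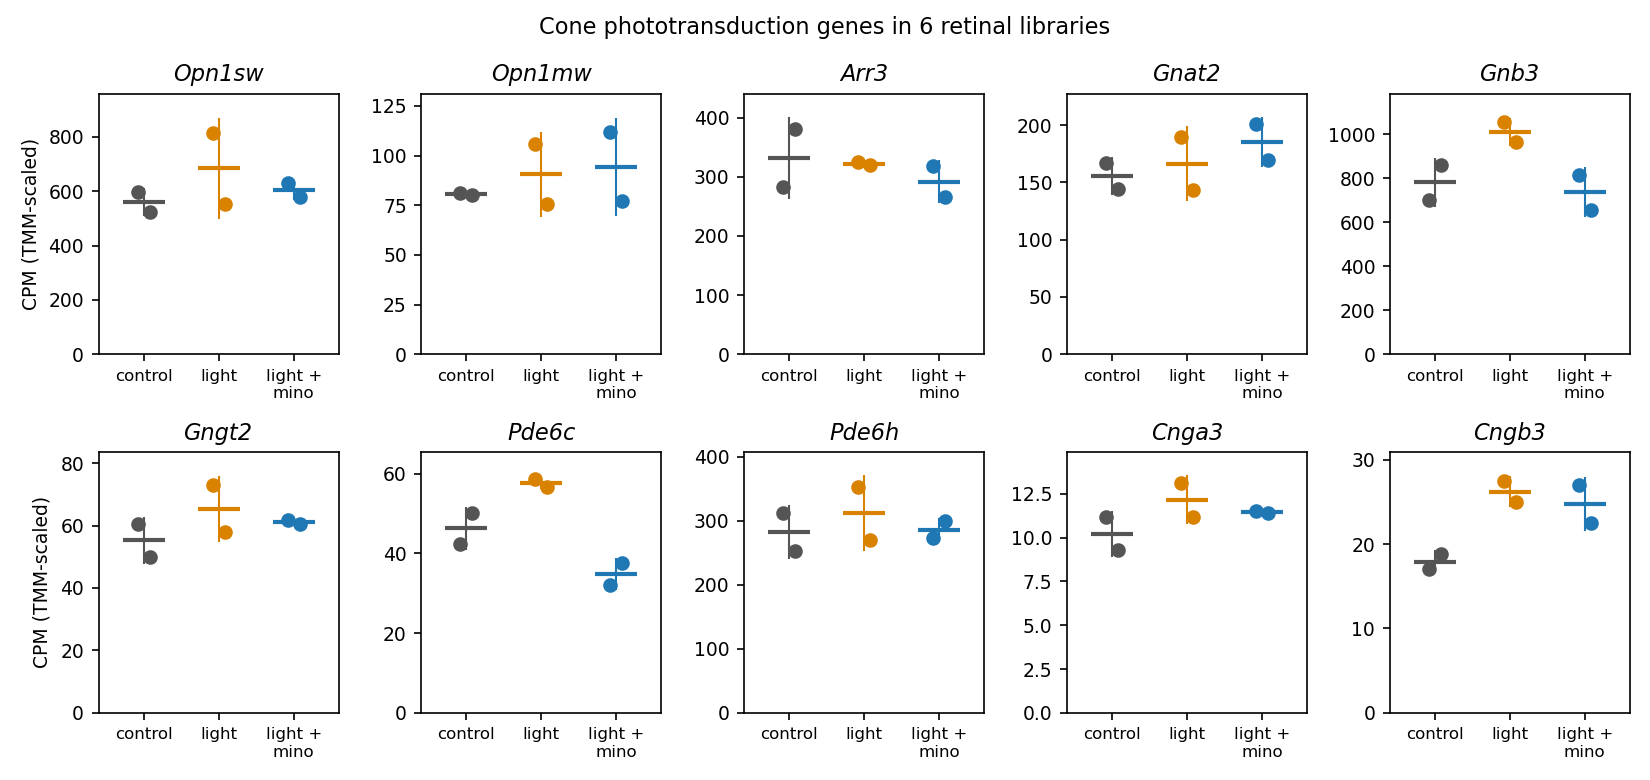
TMM-scaled CPM (y axis, linear, from 0) of the 10 cone genes in the control, light-exposed and light plus minocycline groups. Points are the 2 libraries of a group, horizontal bars the group mean and vertical lines the mean ± SD; the minocycline libraries of Pde6c, at 32.0 and 37.6 CPM, lie below the other 4, and the control libraries of Cngb3, at 17.0 and 18.9 CPM, lie below the other 4.

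Neither of the opsins, which absorb the photon, passed the test in any comparison. Opn1sw stood at 597 and 524 CPM in the control libraries, at 815 and 552 in light-exposed 1 and 2, and at 628 and 578 with minocycline (A, then B). Light-exposed 1 was the highest of the 6 libraries, the other 5 lay between 524 and 628 CPM, and the 3 groups overlapped. After light its log2 fold change was 0.29 ± 0.215 (SE), with a 95% interval from -0.18 to 0.77 (adjusted p = 0.406). Opn1mw stood at 81.1 and 80.2 CPM in the control libraries, at 106 and 75.4 after light, and at 112 and 77.02 with minocycline. One library of each exposed group lay above the controls and the other below, and the log2 fold change after light was 0.17 (95% interval -0.21 to 0.55, adjusted p = 0.556).

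Arr3, which binds the phosphorylated opsin and ends its activity, stood at 282 and 381 CPM in the control libraries, at 325 and 320 after light, and at 318 and 266 with minocycline. The controls spread more widely than the exposed libraries and enclosed both light-exposed values. Its log2 fold change after light was -0.04 (95% interval -0.43 to 0.36, adjusted p = 0.913), the lowest of the 10. Opn1mw and Arr3 are on the X chromosome, and the library that stood apart in Xist, control 1, held less Arr3 than control 2 and about as much Opn1mw. Without it the log2 fold change of Arr3 after light was -0.25. The part of the animals' sex in these values was not tested.

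Cone transducin is built of the alpha subunit Gnat2, the beta subunit Gnb3 and the gamma subunit Gngt2. Gnat2 (chr3:108092789-108101432, plus strand) stood at 167 and 144 CPM in the control libraries, at 190 and 143 after light, and at 201 and 170 with minocycline. Both minocycline libraries lay above both controls, and the light-exposed libraries fell on either side of the controls. Its log2 fold change after light was 0.10 (95% interval -0.28 to 0.48, adjusted p = 0.737). Gngt2 (chr11:95837216-95845734, plus strand), which overlaps Abi3 on the opposite strand and shares 6.16% of its stretches with it, stood at 60.5 and 49.9 CPM, then 72.9 and 57.9, then 61.9 and 60.4, in the same order. The groups overlapped, and the log2 fold change after light was 0.25 (95% interval -0.12 to 0.62, adjusted p = 0.365). Gngt2 is also known from leukocytes. Of 12 microglia and macrophage markers edgeR called 6 higher after light, where 7.52% of all tested genes were called higher, and DESeq2 called 12. The part of leukocytes in the Gngt2 values was not tested.

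Gnb3 (chr6:124834240-124840275, minus strand) stood at 702 and 860 CPM in the control libraries, at 1056 and 964 after light, and at 817 and 657 with minocycline. The light-exposed libraries were the highest of the 6, and the control and minocycline libraries overlapped. The log2 fold change after light was 0.37 ± 0.198 (SE), with a 95% interval from -0.06 to 0.81 (adjusted p = 0.239). The sum of the 12 ON bipolar markers was also highest in the light-exposed libraries. It was 1521 and 1512 CPM in the control libraries, 1989 and 2577 after light and 1625 and 1357 with minocycline. From light-exposed 1 to light-exposed 2 this sum rose while Gnb3 fell. Of these 12 genes edgeR called 5 higher after light and 1 lower, where 7.52% of all tested genes were called higher and 3.80% lower. DESeq2 also called 5 higher and 1 lower. With total counts as the scaling 8 were called higher and 0 lower. In one fit of all 6 libraries 1 was called higher, Trpm1, and 0 lower. Trpm1, the transduction channel of ON bipolar cells, rose by 1.12 (adjusted p = 0.0194), while Lrit3, which is known also from photoreceptors, fell by 0.65 (adjusted p = 0.0313) on the log2 scale. The part of bipolar cells in the Gnb3 values was not tested.

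The phosphodiesterase of cones consists of the catalytic subunit Pde6c and the inhibitory subunit Pde6h. Pde6c (chr19:38132781-38183958, plus strand) stood at 42.5 and 50.1 CPM in the control libraries, at 58.7 and 56.7 after light, and at 32.0 and 37.6 with minocycline. The 3 groups did not overlap, with light highest and minocycline lowest. After light the log2 fold change was 0.32 ± 0.152 (SE), with a 95% interval from -0.01 to 0.66 (adjusted p = 0.188). Pde6h (chr6:136923832-136968865, plus strand) stood at 313 and 253 CPM, then 354 and 270, then 273 and 299 in the same order. All 3 groups overlapped, and the log2 fold change after light was 0.14 (95% interval -0.26 to 0.55, adjusted p = 0.645).

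The cone channel is assembled from Cnga3 and Cngb3, the least abundant of the 10 transcripts. Cnga3 (chr1:37214434-37263384, plus strand) stood at 11.2 and 9.30 CPM in the control libraries, at 13.1 and 11.2 after light, and at 11.5 and 11.4 with minocycline. Light-exposed 2 lay only just above control 1, and the log2 fold change after light was 0.25 (95% interval -0.28 to 0.78, adjusted p = 0.528). Cngb3 (chr4:19280850-19510623, plus strand) stood at 17.0 and 18.9 CPM in the control libraries, at 27.5 and 24.9 after light, and at 27.0 and 22.5 with minocycline. All 4 light-exposed libraries, with or without minocycline, lay above both controls. Its log2 fold change after light was 0.55 ± 0.183 (SE), the largest of the 10, with a 95% interval from 0.15 to 0.95 (unadjusted p = 0.0117, adjusted p = 0.0752).

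All 10 cone genes were lower in light-exposed 2 than in light-exposed 1, by up to 0.56 on the log2 scale (Opn1sw). The same library held less rod RNA, with 28791 against 39899 CPM summed over the 9 rod counterparts, and more microglia RNA. Without light-exposed 1 the median log2 fold change of the cone genes was 0.03, and without light-exposed 2 it was 0.38, so the upward shift rested on light-exposed 1. The normalization also mattered. When libraries were scaled by their total counts alone, the median of all tested genes moved to 0.24, the calls over all genes went from 1079 higher and 545 lower to 1930 higher and 133 lower, and the median of the cone genes became 0.48. Pde6c (adjusted p = 0.0409) and Cngb3 (adjusted p = 0.0265) were then called higher, and Arr3 changed sign to 0.20.

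**Figure D2:**
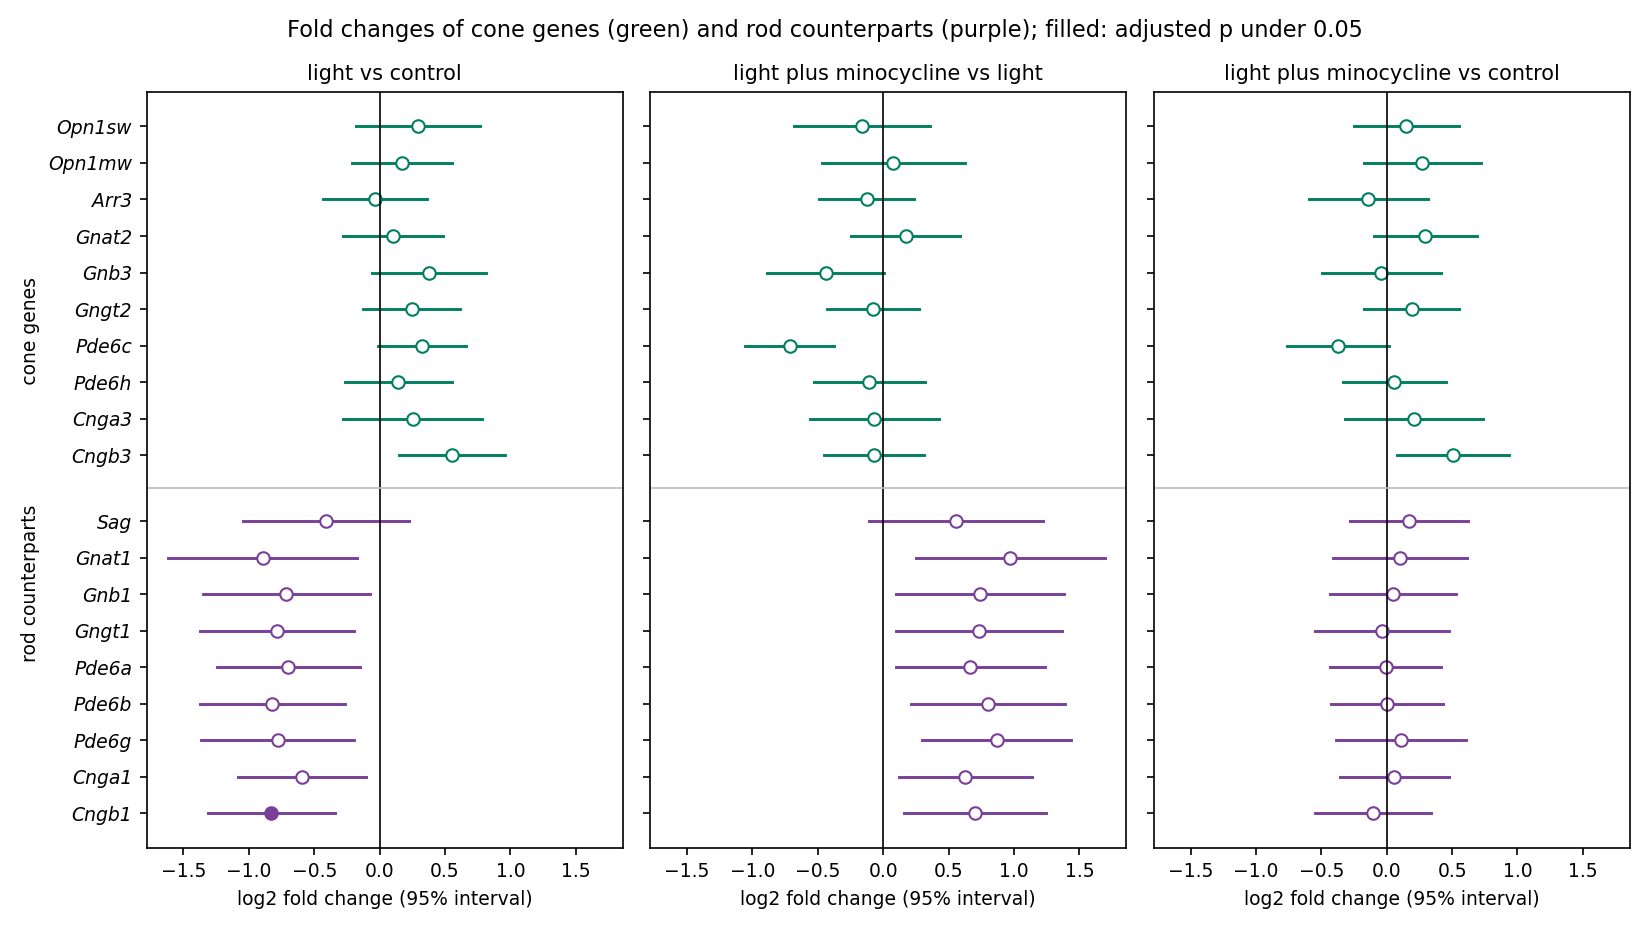
Log2 fold changes (x axis) with 95% intervals from edgeR for the 10 cone genes (green, upper rows) and 9 rod counterparts (purple, lower rows) in the 3 comparisons, filled where the adjusted p was under 0.05. Cone genes lie between -0.04 and 0.55 after light, rod genes between -0.89 and -0.41, and the only filled point is Cngb1.

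The second comparison asked what minocycline changed in light-exposed retinas. No cone gene was called (14750 genes tested), and calls were rare over all genes, at 0.0136% higher and 0.0407% lower. The median log2 fold change of the cone genes was -0.09, beside 0.0062 over all tested genes. In 3 genes (Arr3, Gnb3 and Pde6c) both minocycline libraries lay below both light-exposed libraries, and in 0 above, against 28.8% and 26.0% of all tested genes, so 3 of 10 was near the background. At unadjusted p under 0.05 stood 1 cone gene, Pde6c, among 3117 of all tested genes. Of the 10 intervals, 9 lay between -1 and 1.

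Pde6c was the gene whose interval reached beyond that. Its level went from 57.7 ± 1.45 to 34.8 ± 3.97 CPM (SD, n = 2), a log2 fold change of -0.71 ± 0.145 (SE) with a 95% interval from -1.05 to -0.37, or 0.610-fold (unadjusted p = 0.0015, adjusted p = 0.0709). It passed the threshold in DESeq2 (adjusted p = 0.0068), without the filter on low counts (adjusted p = 0.0241) and in a fit of all 6 libraries (adjusted p = 0.0412). These fits also called many more of all genes, with 466 higher and 745 lower in DESeq2, 247 and 485 without the filter, and 135 and 353 in the fit of all libraries, against 2 and 6. It did not pass without robust estimation (adjusted p = 0.0659), with DESeq2 size factors (0.0736), total counts (0.0986) or the upper quartile (0.0698) as the scaling, or with at least 10 counts in every library (0.0969). With each library left out in turn its size lay between -0.84 and -0.58, with adjusted p from 0.0929 to 0.305. Gnb3 followed with -0.44 ± 0.190 (adjusted p = 0.242). The remaining 8 log2 fold changes ran from -0.16 (Opn1sw) to 0.17 (Gnat2), with adjusted p from 0.637 to 0.894. The minocycline libraries are also those with the high sums of corneal, pigment cell and smooth muscle markers, and whether these bear on the Pde6c value was not tested.

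Minocycline-treated and light-exposed retinas were last set against untreated controls, which shares both sets of libraries with the comparisons above. No cone gene was called (14181 genes tested), beside 0.162% of all genes called higher and 0% lower, where 994 genes, 1 of them a cone gene (Cngb3), had an unadjusted p under 0.05. DESeq2 called 163 genes higher and 4 lower, 0 of them cone genes. The median log2 fold change of the cone genes was 0.17, beside 0.02 over all genes, and all 10 intervals lay between -1 and 1. Both minocycline libraries lay above both controls in 3 genes (Gnat2, Cnga3 and Cngb3), against 15.9% of all tested genes, and below them in 1 (Pde6c), against 24.0%. Cngb3 had a log2 fold change of 0.51 (95% interval 0.08 to 0.94, unadjusted p = 0.0256, adjusted p = 0.596), and Pde6c one of -0.37 (95% interval -0.76 to 0.02, adjusted p = 0.728).

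The 9 rod counterparts were tested between the groups in the same way as the cone genes, with the same scaling. After light the 9 rod genes had log2 fold changes between -0.89 (Gnat1) and -0.41 (Sag, the rod arrestin), with a median of -0.78, and in all 9 both light-exposed libraries lay below both controls, as they did in 30.3% of all tested genes. In edgeR 1 of the 9 passed the test, Cngb1 at -0.83 (adjusted p = 0.0372), where 3.80% of all tested genes were called lower, and 8 had an unadjusted p under 0.05. This count was 7 with the replicate block, 4 without the filter, and 0 with total counts as the scaling or without robust estimation. Over all genes these fits called 857, 829, 133 and 467 lower, in the same order. In DESeq2, which called 796 of 18252 genes lower, 8 of the 9 passed, all but Sag. Cngb1 passed in DESeq2 at an adjusted p of 6.62e-05 and in edgeR without the filter (0.0112), with the replicate block (0.0059) and without light-exposed 1 (0.0169), and did not pass with total counts as the scaling (-0.60, adjusted p = 0.0788) or without robust estimation (adjusted p = 0.0510). Leaving out a library leaves a group of 1, which is then assumed to vary like the other group, and Cngb1 had values of -0.76 without control 1 (adjusted p = 0.125), -0.91 without control 2 (adjusted p = 0.136) and -0.65 without light-exposed 2 (adjusted p = 0.330). Gnat1 stood at 9504 ± 2465 CPM after light and 18427 ± 969 with minocycline. With minocycline against light alone the rod median was 0.73. In edgeR 0 of the 9 passed the threshold and 8 had an unadjusted p under 0.05, and in DESeq2 all 9 passed, Cngb1 at 0.71 (adjusted p = 0.0071), where 466 of 18453 genes were called higher. Against controls the rod median was 0.05 and 0 genes passed in either tool, with 0 at an unadjusted p under 0.05 in edgeR.

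The cone genes were then set against the rod genes within each library, where no scaling enters. The 10 cone genes together gave 3.67 and 4.61 counts per 100 counts of the 9 rod genes in the control libraries, 7.56 and 8.60 in the light-exposed libraries, and 4.41 and 3.66 with minocycline. Both light-exposed libraries thus lay above the other 4, which overlapped. The ratio was 1.96-fold higher after light than in controls and, with minocycline, 0.498-fold of its value after light alone. With 2 libraries a group an exact two-sided permutation test cannot go below p = 0.333, and no other test of these ratios was run. When each library was left out in turn the log2 difference was 0.81 to 1.14 after light and -1.14 to -0.87 with minocycline against light. Without Gnb3 and Gnb1, which are not restricted to photoreceptors, the ratio was 1.86-fold higher after light, and without the cone opsins 1.95-fold. The sum of the cone genes alone was 2274 and 2370 CPM in the control libraries, 3017 and 2475 after light and 2481 and 2179 with minocycline. The rod sum was 62011 and 51450 CPM, then 39899 and 28791, then 56219 and 59574.

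Each of the 9 pairs of a cone gene and its rod counterpart showed the same order. After light every ratio was higher in both libraries than in both controls, from 1.32-fold (Arr3 to Sag) to 2.63-fold (Cngb3 to Cngb1), with a median of 2.05-fold. In CPM both light-exposed libraries lay below both controls in all 9 rod genes, as in 30.3% of all tested genes. They lay above both controls in 4 of the 10 cone genes, as in 30.6%. A ratio can thus separate through its rod gene alone, and no share over all genes was computed for the ratios. Gnat2 gave 8.07 and 9.79 counts per 1000 Gnat1 counts in the control libraries, 16.9 and 18.5 after light and 11.3 and 8.89 with minocycline. Gngt2 gave 10.4 and 11.1 counts per 1000 counts of Gngt1, the rod transducin gamma subunit, then 21.4 and 22.7, then 14.7 and 10.9. The light-exposed libraries stood apart in both pairs, and the minocycline libraries overlapped the controls.

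With minocycline all 9 ratios were lower than after light alone, from 0.346-fold (Pde6c to Pde6b) to 0.615-fold (Arr3 to Sag). In CPM both minocycline libraries lay above both light-exposed libraries in all 9 rod genes, as in 26.0% of all tested genes. They lay below both in 3 of the 10 cone genes, as in 28.8%. Against controls 4 pairs overlapped, 2 were higher (Cnga3 to Cnga1 and Cngb3 to Cngb1) and 3 were lower (Arr3 to Sag and Pde6c to both rod catalytic subunits). Pde6c gave 9.52 and 11.2 counts per 1000 Pde6b counts in the control libraries, 20.2 and 26.4 after light and 7.83 and 8.14 with minocycline, the last below the controls. Cngb3 gave 9.03 and 11.1 counts per 1000 Cngb1 counts in the control libraries, 24.1 and 28.7 after light and 18.8 and 12.6 with minocycline, again above the controls. The pairs share the libraries, and Pde6c enters 2 pairs, so they are not independent.

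**Figure D3:**
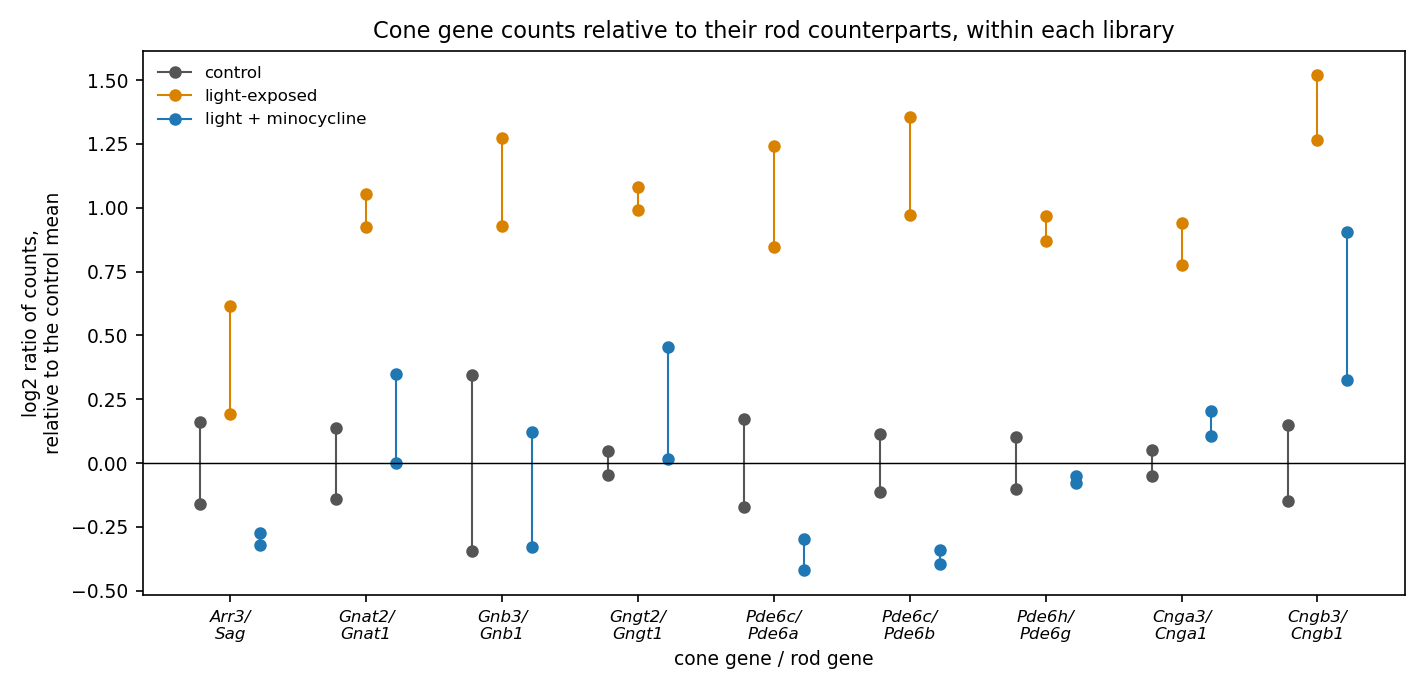
Log2 ratio of the counts of a cone gene to those of its rod counterpart, relative to the control mean (y axis), for 9 pairs (x axis). Points joined by a line are the 2 libraries of a group; in all 9 pairs both light-exposed libraries lie above the other 4, and the smallest gap is that of Arr3 to Sag.

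The proportions within the cone cascade were compared next. Opn1sw gave 7.36 and 6.53 counts per Opn1mw count in the control libraries, 7.72 and 7.32 after light, and 5.62 and 7.50 with minocycline. All 3 groups overlapped. Per length this was 3.75 and 3.32, then 3.93 and 3.73, then 2.86 and 3.82, so the short-wavelength transcript exceeded the other in every library.

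Each gene was also set against the summed counts of the other 9. After light 9 of the 10 shares overlapped with controls, and Cngb3 was the exception. It held 0.753 and 0.803 counts per 100 in the control libraries, 0.921 and 1.02 after light, and 1.10 and 1.04 with minocycline, which was above both other groups. Pde6c held 1.90 and 2.16 counts per 100 in the control libraries, 1.99 and 2.34 after light, and 1.31 and 1.75 with minocycline, below both. Gnat2 held 7.94 and 6.46, then 6.71 and 6.14, then 8.80 and 8.45, with the minocycline libraries above the rest. Between minocycline and light alone 7 of the 10 shares did not overlap, with Opn1mw, Gnat2, Gngt2, Cnga3 and Cngb3 higher and Gnb3 and Pde6c lower. Shares of one sum are not independent, and in CPM 26.0% of all tested genes were separated higher and 28.8% lower in this comparison. Relative to its inhibitory subunit Pde6h, Pde6c stood at 13.6 and 19.8, then 16.6 and 21.0, then 11.7 and 12.6 counts per 100, again lowest with minocycline. Cngb3 stood at 152 and 203 counts per 100 Cnga3 counts in the control libraries, 209 and 223 after light and 234 and 197 with minocycline.

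**Figure D4:**
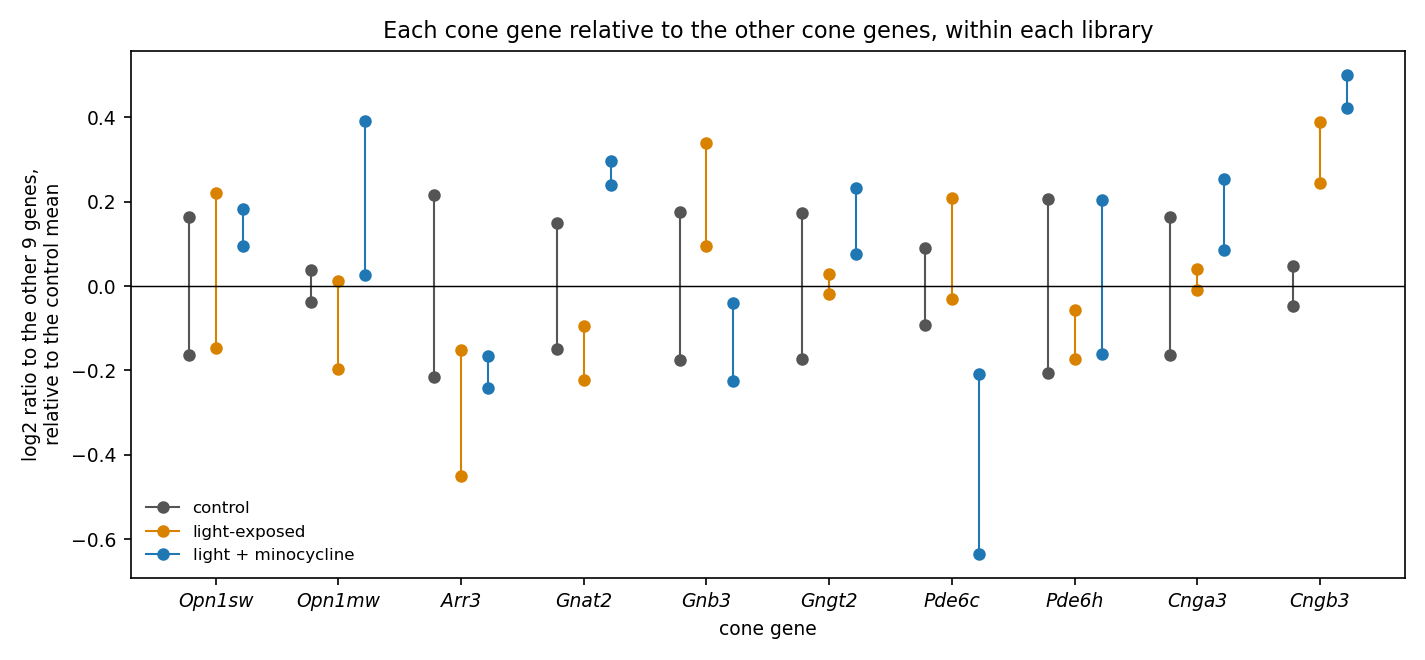
Log2 ratio of each cone gene to the summed counts of the other 9, relative to the control mean (y axis), by gene (x axis). Points joined by a line are the 2 libraries of a group; Cngb3 lies higher in both exposed groups than in controls, and Pde6c lies lower with minocycline than in the other groups.

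Other genes of the pathway and of cones were counted from lists. Of 12 phototransduction genes listed as shared by rods and cones, 3 fell after light and 0 rose in edgeR, and the median was -0.68. Of all tested genes 3.80% were called lower and 7.52% higher. DESeq2 called 11 of the 12 lower, and edgeR with total counts as the scaling called 0 of them. The 3 called in edgeR were Rgs9bp, the anchor of the GTPase-activating complex, at -0.89 (adjusted p = 0.0293), Gucy2f, a guanylate cyclase, at -0.79 (adjusted p = 0.0352), and Guca1b, a guanylate cyclase activating protein, at -0.79 (adjusted p = 0.0413). The most abundant of the list, Rgs9 and the opsin kinase Grk1, had values of -0.53 and -0.75 that did not pass there. The genes listed as shared thus had a median nearer to that of the rod genes than to that of the cone genes. The parts of rods and of cones in their values were not tested. Of 7 further cone-enriched genes 1 rose, Ccdc136 at 0.66 (adjusted p = 0.0236), 0 fell, and the median was 0.33. That is 1 call in 7, near the 7.52% of all tested genes called higher. With total counts as the scaling edgeR called 3 of the 7 higher, Ccdc136 among them, where 1930 of all tested genes were called higher. Thrb, the thyroid hormone receptor that directs cone opsin choice, stood at 130 ± 31.2 CPM in controls and 125 ± 19.1 CPM after light, a log2 fold change of -0.06 (adjusted p = 0.875). Of 7 photoreceptor transcription factors 1 fell, Nrl, which specifies rods, at -0.96 (adjusted p = 0.0296), and the median was -0.59, while DESeq2 called 5 of the 7 lower. With total counts as the scaling edgeR called 0 of the 7, and Nrl was at -0.73 (adjusted p = 0.054). Crx stood at 1753 ± 61.6 CPM in controls and 1062 ± 193 CPM after light, a log2 fold change of -0.72 (adjusted p = 0.0558). In edgeR 0 genes of these 3 lists were called in either minocycline comparison. Against light alone 7 shared genes and 3 transcription factors had an unadjusted p under 0.05, all higher, as did 1 cone-enriched gene that was lower, and against controls 0 did. DESeq2 called 7 shared genes and 2 transcription factors higher and Ccdc136 lower against light alone, and 0 of the 3 lists against controls. Of the 5 genes called in edgeR after light, 0 passed without control 1, without control 2 or without light-exposed 2, and all 5 passed without light-exposed 1. Their log2 fold changes kept their direction in these fits, from -1.14 to -0.60 for the 4 that fell and from 0.56 to 0.75 for Ccdc136. Over all genes 4 were called higher and 0 lower without control 1, 20 and 37 without control 2, 443 and 54 without light-exposed 2, and 1683 and 462 without light-exposed 1.

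In the lists of other retinal cells, edgeR called 6 of 12 microglia markers higher after light and 0 lower, with a median of 4.16. It called 1 of 8 Müller glia markers higher, the glutamate transporter Slc1a3 at 1.13 (adjusted p = 0.0124). Of all tested genes 7.52% were called higher. All 12 microglia and all 8 Müller glia log2 fold changes were positive, and 12 and 6 of them had an unadjusted p under 0.05 in edgeR. DESeq2 called 12 of 12 microglia and 4 of 8 Müller glia markers higher. No marker of ganglion and amacrine cells (12), pigment epithelium (7 of 8 tested), pigment cells (6), corneal epithelium (6 of 10 tested) or smooth muscle (5 of 6 tested) was called after light in edgeR or in DESeq2, and 1 of them, of the pigment epithelium, had an unadjusted p under 0.05 in edgeR. With minocycline edgeR called 2 of 9 tested corneal markers higher than after light alone and 4 of 9 higher than in controls. Of all tested genes 0.0136% and 0.162% were called higher. The cell junction gene Dsp was among them in both, at 4.78 (adjusted p = 0.0444) and 3.73 (adjusted p = 0.0356) on the log2 scale. All 9 tested corneal markers were higher with an unadjusted p under 0.05 in edgeR in both comparisons. In edgeR 0 other listed markers were called in the minocycline comparisons. Against light alone DESeq2 called 11 of 12 microglia markers lower and all 6 pigment cell and all 6 smooth muscle markers higher, and the same numbers had an unadjusted p under 0.05 in edgeR. It also called 3 of 8 Müller glia and 5 of 12 ON bipolar cell markers lower and 8 of 10 corneal markers higher. Against controls it called 6 corneal, 2 smooth muscle and 1 pigment cell marker higher.

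Finally, the genes with the most similar course were sought among 9812 tested genes with a mean of at least 10 CPM, by the mean absolute difference of their centred log2 CPM from the median profile of the 10 cone genes over the 6 libraries. The nearest were Dnttip2 (0.040), Phf13 (0.041), Cops5 (0.044), Znrd1 (0.048) and Ttc33 (0.049). Dnttip2 stood at 89.7 and 88.3 CPM in the control libraries, 122 and 98.3 after light and 110 and 98.6 with minocycline. Of the cone genes themselves, Gngt2 was nearest to that profile at 0.033, Cnga3 followed at 0.041, and Pde6c was furthest at 0.268. The likeness rests on 6 libraries and small changes and is given as a description only.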

How the data were processed

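Mouse retinal RNA of 6 libraries was measured as stranded mRNA-seq. Alignment to mm10 with STAR and counting per gene were done by the authors in RNA Express, and the counts were deposited. The values are whole numbers without scaling for 23420 genes, of which 4791 were at 0 in every library, although the data statement calls them normalized. The versions of STAR and DESeq2, the gene annotation and the use of the strand in counting are not given in the sources used here. No value column was left unused (0).

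Pairs of groups were tested in R 4.3.3 with edgeR 4.0.16 (filterByExpr, TMM, robust quasi-likelihood F test, Benjamini-Hochberg adjustment over all tested genes, threshold 0.05). With the study's additional cutoff of a log2 fold change of 2, 0 cone genes were called. CPM values were scaled with TMM over all 6 libraries, and log2 CPM used a prior count of 2. Standard errors and 95% intervals came from the F statistic. The replicates are called biological without further detail. The p-values set a group difference against the spread between these libraries, with the spread of each gene moderated across genes. Total counts of 15205930 to 22856922 gave the cone genes 132 to 20295 counts. Ratios within a library used counts. Gene models came from GENCODE vM21 and promoters from RefSeq (GRCm38.p6), and stretches of 50 bases were compared between transcripts. No protein sequence was used here.

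Named genes were the 10 members, 9 rod counterparts (1 rod gene is not reported here and was left out of the sums), genes of the other 11 lists with an adjusted p under 0.05 or among the 2 with the highest mean CPM of a list, and the 5 genes nearest in profile. Of the other genes that this rule admits, those of cell types outside the photoreceptors are mostly given as counts. The members and lists were chosen with earlier results of these data known. Alternatives were DESeq2 1.42.0, edgeR without robust estimation, other scalings, other filters, one fit of all libraries, a replicate block, and leaving out each library. The fits were tested on simulated data. Python 3.11.15 and matplotlib 3.10.9 drew the figures.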

Additional observations from a re-analysis of the deposited data

How the results depend on the processing

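With 2 libraries a group, the log2 fold changes of cone genes had standard errors of 0.145 to 0.241, and differences of up to 0.71 in size did not pass the test. The number of cone genes called was 0 in each comparison, and it was 0 under each omission of a library (0 to 0). It became 2 after light with total library size (Pde6c and Cngb3), and 1 with minocycline against light (Pde6c) in DESeq2, without a filter and in the fit of all 6 libraries. The calls over all genes rose there from 2 higher and 6 lower to 466 and 745, 247 and 485, and 135 and 353. The cause was not tested. The median log2 fold change kept its direction under the other scalings, filters and fits. Leaving out a library gave 0.03 to 0.38 after light, -0.23 to 0.06 with minocycline against light, and 0.09 to 0.26 with minocycline against control.

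Single genes changed sign, among them Opn1sw after light (0.29) and Opn1mw with minocycline against control (0.27). Arr3 after light was 0.20 with total library size and 0.0035 with the upper quartile, Opn1mw with minocycline against light was -0.084 with total library size, and Gnb3 with minocycline against control was 0.0022 with total library size. When each library was left out in turn after light, Arr3 ranged from -0.25 to 0.19, Gnat2 from -0.12 to 0.29, Pde6h from -0.064 to 0.32, Opn1sw from -0.018 to 0.54 and Opn1mw from -0.094 to 0.39. With minocycline against light, Opn1sw ranged from -0.44 to 0.13, Gngt2 from -0.26 to 0.084, Pde6h from -0.31 to 0.086, Cnga3 from -0.20 to 0.043, Opn1mw from -0.20 to 0.33, Gnat2 from -0.036 to 0.38 and Cngb3 from -0.19 to 0.050. With minocycline against control, Arr3 ranged from -0.35 to 0.10, Gnb3 from -0.21 to 0.12, Pde6h from -0.081 to 0.21 and Opn1mw from -0.030 to 0.48. The log2 difference of the Opn1sw to Opn1mw ratio ranged from -0.42 to -0.0034 with minocycline against light and from -0.30 to 0.11 against control. The cone to rod ratio with minocycline against control ranged from -0.20 to 0.13.

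Same-numbered control and light-exposed libraries did not deviate together (r = -0.01 over 14713 genes, across genes, with 2 pairs). With the replicate number as a block 0 cone genes were called after light, the median was 0.25, and the calls over all genes rose to 1668 higher and 857 lower. No paired analysis was possible with the minocycline libraries because both columns have one header and hence no numbers.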
